A study of Mus musculus with 12 samples.

Results

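The response of Cdk7 knockout fat to CL was measured as the difference between 6 RNA-seq libraries of a series of 12, namely 3 labelled ko and CL and 3 labelled ko and saline. The tissue was perigonadal white fat, a visceral depot beside the gonads, of C57BL/6 mice at the age of 9 weeks. The ko mice had an adipose-specific deletion of Cdk7, and the other 6 libraries came from their control littermates, labelled wt, under the same 2 treatments. Each library pooled RNA of 2 mice, 250 ng from each, taken at zeitgeber time 9 after 7 days of saline or CL injection, so each group of 3 libraries stood for 6 mice. The labels give the agent only as CL, which is the usual short name in this field for an agonist of the beta-3-adrenergic receptor. They do not name the promoter that drove the recombinase, nor the cells in which it acted. A genotype tag in the labels follows the treatment and goes against 6 of the 12 titles, so groups were taken from the titles. The p-values measure the spread between these pools.

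White adipocytes store triglyceride in one large droplet. Activation of the beta-3 receptor raises cyclic AMP in the adipocyte, which starts lipolysis within minutes and, over days, a programme of fatty acid oxidation, lipid resynthesis and uncoupled respiration through Ucp1. Progenitors divide during this remodelling, and macrophages take up lipid released by dying adipocytes and break it down in their lysosomes. CDK7 phosphorylates RNA polymerase II as part of TFIIH and switches on the kinases that drive the cell cycle. Levels below are CPM, counts scaled to the TMM-normalised library size, and changes are log2 fold changes of ko CL over ko saline with their standard error. A gene is said to have risen or fallen only when edgeR's quasi-likelihood test called it at an adjusted p under 0.05 over all 16554 tested genes.

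The ko libraries held 21988274 to 27832776 gene counts. Cdk7 itself checks the labels, and it was at 11.02, 11.7 and 11.5 CPM under saline, 23.6, 19.5 and 18.1 under CL, and 29.3 to 35.4 in the 6 wt libraries. All ko libraries lay below all wt libraries, and within ko Cdk7 rose under CL by 0.84 ± 0.096 (adjusted p = 1.01e-05). How much of this RNA came from cells that kept the intact gene was not measured. Markers of other cell types differed between the libraries. Genes of motile cilia summed to 362, 425 and 325 CPM in the ko saline libraries against 111, 116 and 82.0 in ko CL, and genes of duct epithelium to 292, 404 and 299 against 68.6, 83.4 and 62.8. Immunoglobulin genes took 0.439% of the gene counts of ko CL 2, against 0.0621% and 0.105% in ko CL 1 and 3 and 0.0899% to 0.114% in ko saline. The part of these cells in the results was not tested beyond leaving out single libraries and fitting the motile cilia score, the mean log2 CPM of 49 cilia genes, as a covariate. In bulk tissue, fewer cells of a type and less RNA per cell cannot be told apart.

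CL changed many genes in the knockout fat. Of 16554 genes, 4497 rose (27.2%) and 4546 fell (27.5%), 1657 and 1601 of them at least 2-fold and 245 and 340 at least 8-fold. Unless said otherwise, counts of list members below are to be read against 27.2% higher and 27.5% lower. The median over all genes was -0.0099. The balance of the 2 directions depends on the scaling, since with library size alone in place of TMM 3701 genes were higher and 5475 lower, at a median of -0.0956. In 4294 of the higher and 4405 of the lower genes the 3 libraries of one group did not overlap the 3 of the other. With the motile cilia score as covariate, 2480 genes were higher and 1856 lower. Without ko CL 2 the counts were 4058 and 4612. In wt fat, 19.6% of the same genes were called higher and 17.1% lower, and of the genes called in ko 2134 were also called in wt in the same direction and 1517 in the opposite one. Along the first principal component of the 6 ko libraries, which held 81.2% of their variance, the saline libraries lay at -69.7 to -60.8 and the CL libraries at 52.9 to 75.5.

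**Figure D1:**
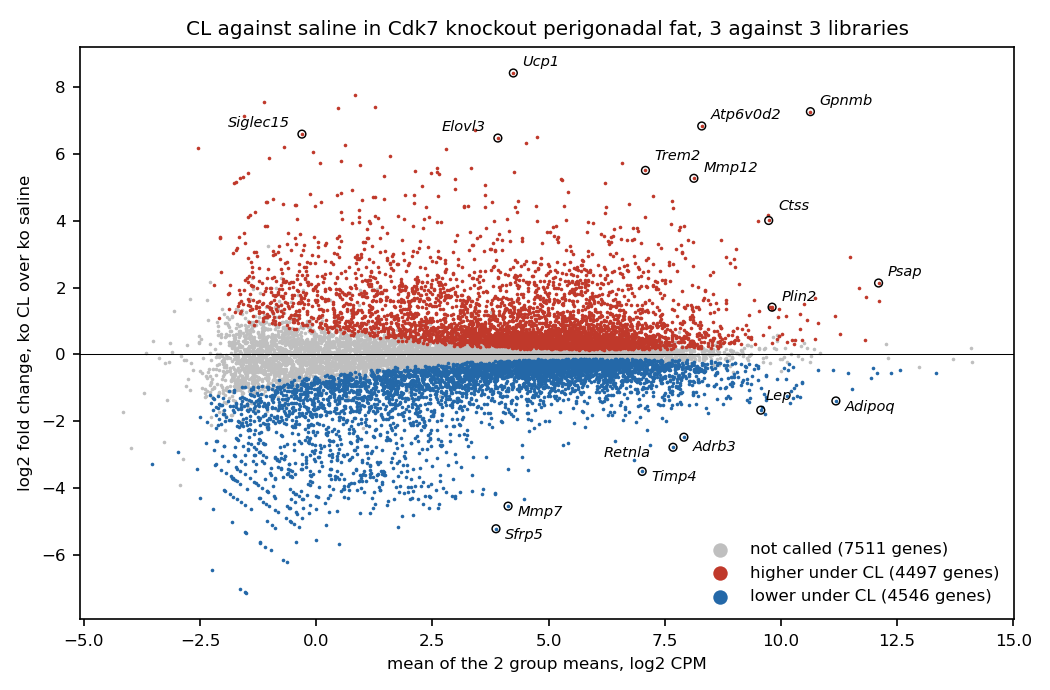
Each point is 1 of 16554 genes, with the mean level of ko saline and ko CL on the x axis (log2 CPM) and the log2 fold change of CL over saline on the y axis. Red marks the 4497 genes called higher, blue the 4546 called lower and grey the rest, and Gpnmb at 7.27 is the highest of the abundant genes that are labelled.

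Lysosomal genes rose. The lysosome breaks down what a cell takes up, and its genes share binding sites for the MiT family of transcription factors. Gpnmb, encoding a glycoprotein of lysosomes in lipid-laden macrophages, was at 17.5, 19.2 and 24.7 CPM in the ko saline libraries and 3901, 2329 and 3249 in ko CL (7.27 ± 0.44, adjusted p = 3.72e-08). Every ko CL library lay far above every ko saline library, and ko CL 1 was the highest. Lgmn, encoding the asparaginyl endopeptidase legumain, went from 120.5, 125 and 131 to 1014, 725 and 755 CPM (2.73 ± 0.14, adjusted p = 8.17e-09). Gla, encoding the alpha-galactosidase that is deficient in Fabry disease, went from 12.0, 10.7 and 9.29 to 86.5, 55.6 and 66.8 CPM (2.71 ± 0.14, adjusted p = 1.33e-08). In neither gene did the groups overlap. Lamp1, the main protein of the lysosomal membrane, was already at 998, 955 and 969 CPM under saline and reached 1369, 1182 and 1246 (0.38 ± 0.072), which was not called with the cilia score as a covariate (0.36, adjusted p = 0.0827). Atp6v0d1, the widely expressed d subunit of the proton pump, stayed close to its saline level, with 135, 133 and 141 against 149, 138 and 151 CPM (0.099 ± 0.062, adjusted p = 0.193), and the groups overlapped.

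The promoters of these 5 genes are shown because most carry the same short motifs while their changes run from the largest of the lysosomal group to none called. Each runs from 250 bases before to 20 after the RefSeq start in GRCm38.p6. Capitals mark the core of the CLEAR element bound by TFEB and its relatives, TCACGTG, and the M-box of MITF, TCACATG, on either strand. TCACGTG contains the general E-box CACGTG, and being nearly palindromic it can match both strands at 1 site.
Gla, chrX:134600986-134601255, minus strand: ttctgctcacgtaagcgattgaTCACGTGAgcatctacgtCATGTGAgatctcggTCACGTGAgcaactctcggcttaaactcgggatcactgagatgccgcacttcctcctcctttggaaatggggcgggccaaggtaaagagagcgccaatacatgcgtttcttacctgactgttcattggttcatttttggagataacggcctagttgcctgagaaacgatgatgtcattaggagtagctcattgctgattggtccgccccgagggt
Lgmn, chr12:102439073-102439342, minus strand: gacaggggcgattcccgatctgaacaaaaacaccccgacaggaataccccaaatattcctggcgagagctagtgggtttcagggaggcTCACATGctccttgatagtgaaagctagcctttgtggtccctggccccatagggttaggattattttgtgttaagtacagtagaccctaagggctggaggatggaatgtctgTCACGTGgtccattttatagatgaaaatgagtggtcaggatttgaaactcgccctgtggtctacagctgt
Lamp1, chr8:13158911-13159180, plus strand: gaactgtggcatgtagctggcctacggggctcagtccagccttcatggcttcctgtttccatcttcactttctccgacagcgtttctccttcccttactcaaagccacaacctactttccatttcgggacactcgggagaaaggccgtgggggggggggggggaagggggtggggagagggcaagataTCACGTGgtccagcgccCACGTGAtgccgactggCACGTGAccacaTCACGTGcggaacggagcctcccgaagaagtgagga
Atp6v0d1, chr8:105566045-105566314, minus strand: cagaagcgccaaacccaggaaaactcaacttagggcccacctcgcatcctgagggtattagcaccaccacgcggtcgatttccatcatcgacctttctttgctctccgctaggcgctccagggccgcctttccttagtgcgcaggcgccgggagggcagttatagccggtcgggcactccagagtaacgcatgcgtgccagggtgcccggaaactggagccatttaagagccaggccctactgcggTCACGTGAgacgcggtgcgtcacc
Gpnmb, chr6:49036268-49036537, plus strand: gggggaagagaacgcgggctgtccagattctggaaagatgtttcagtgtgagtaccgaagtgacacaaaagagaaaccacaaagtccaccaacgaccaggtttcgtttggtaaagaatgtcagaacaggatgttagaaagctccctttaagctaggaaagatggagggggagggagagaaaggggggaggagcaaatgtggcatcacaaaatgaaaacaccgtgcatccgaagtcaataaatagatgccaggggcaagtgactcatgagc

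Gla held 2 CLEAR cores and 1 M-box. Lgmn has 2 RefSeq starts, and the window printed above, at the downstream one, held 1 of each. The window at its upstream start, chr12:102439709-102439978, held neither. Lamp1 held 4 CLEAR cores and Atp6v0d1 held 1. Gpnmb, with the largest change, held neither motif in this window. Over the whole 300-base windows in the table, the CLEAR core was in 10 of 32 lysosomal genes with a promoter (31.2%) and in 771 of all 12167 tested genes with one (6.34%). The M-box was in 6 of the 32 (18.8%) and in 376 of all (3.09%). A match in these letters is a description of the window and not a measured binding site.

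Of 41 tested lysosomal enzymes and membrane proteins, 37 rose and 0 fell (90.2% higher, against 27.2% of all genes), with a median of 1.11. With the cilia score as a covariate 27 were higher. All 10 proteases rose, with a median of 1.70. Ctss, cathepsin S of antigen-presenting cells, was at 4.01, and Ctsk, the collagen-degrading cathepsin of osteoclasts, went from 25.2, 33.7 and 31.1 to 337, 231 and 326 CPM (3.31 ± 0.15). The enzymes of lipid and glycan breakdown had 17 of 21 members higher, at a median of only 0.45. Lipa, the acid lipase that frees cholesterol and fatty acids, stood out there, with 112, 102 and 100.6 against 1043, 599.5 and 748 CPM (2.92 ± 0.16). Psap, the precursor of the saposins that present sphingolipids to their enzymes, reached 8285, 6326 and 6869 CPM from 1600.1, 1641 and 1649. Among the membrane transporters, Slc37a2, a phosphate exchanger of macrophages, was at 4.75 and Slc11a1, the phagosomal metal pump, at 2.95.

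The proton pump did not rise as a block. Of 21 tested V-ATPase subunits 13 rose and 3 fell, with a median of 0.42, and with the cilia score as a covariate 7 were higher. Atp6v0d2, the d subunit used in osteoclasts and activated macrophages, went from 3.99, 6.26 and 6.03 to 799, 493 and 577 CPM (6.84 ± 0.42), unlike its paralog Atp6v0d1. Tcirg1, the a3 subunit of osteoclasts, was at 2.68, and Atp6v1b2, the ubiquitous B subunit, at 1.51. Atp6v0e2 fell, from 55.8, 62.0 and 56.3 to 16.7, 19.4 and 16.1 CPM (-1.74 ± 0.075). Atp6v0c and Atp6v1b1 had 0 counts in every library. So had the ribosomal protein gene Rpl13 and the respiratory subunit gene Cox4i1, so 0 counts here do not show that a gene was not expressed.

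All 4 MiT factors rose. Mitf went from 19.8, 15.2 and 17.6 to 100.5, 65.2 and 69.4 CPM (2.16 ± 0.15), Tfeb was at 1.51 ± 0.15, Tfec, which is largely confined to myeloid cells, at 1.52 ± 0.22, and Tfe3 at 0.90 ± 0.067. Their libraries did not overlap between the groups. In wt none of the 4 was called, and for Mitf the response in ko exceeded that in wt by 2.53 ± 0.22 (adjusted p = 1.83e-06). Among the proteins that hold these factors in the cytoplasm, Fnip2 rose by 2.26 ± 0.14 and its partner Flcn, encoding folliculin, by 0.79 ± 0.076. Of the 13 nutrient sensing regulators in the list 7 rose and 0 fell.

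Genes that macrophages use to fuse into multinucleated cells formed a further group. Of 7 such genes, 6 rose and 1 fell. Tm4sf19 went from 0.616, 0.622 and 0.447 to 54.0, 28.6 and 52.2 CPM (6.32 ± 0.33), and Dcstamp, the fusion receptor of osteoclasts and giant cells, from 1.09, 2.20 and 0.989 to 11.8, 8.25 and 9.57 (2.80 ± 0.36). The genes by which osteoclasts resorb bone moved less evenly, with 3 of 8 higher and 1 lower, against 27.2% and 27.5% of all genes. Acp5, tartrate-resistant acid phosphatase and a classic osteoclast marker, fell from 382, 360.3 and 409.6 to 187, 223 and 241 CPM (-0.82 ± 0.12).

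**Figure D2:**
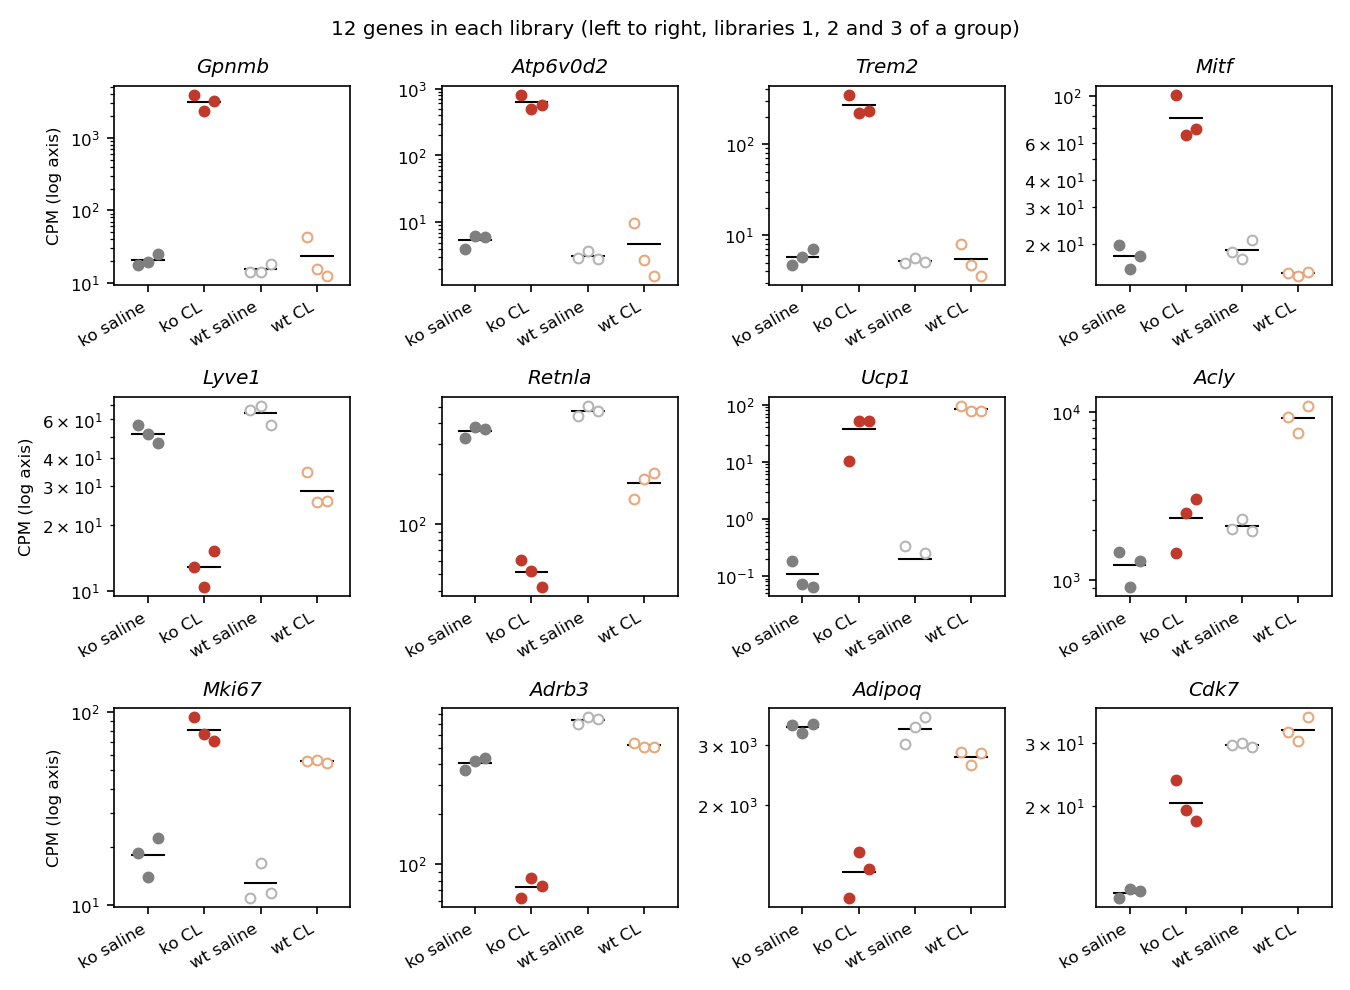
Each panel gives 1 gene in CPM on a log axis, with the 3 libraries of each group as points in the order 1 to 3, filled for ko and open for wt, and the group mean as a line. Mki67 and Cdk7 are shown beside the genes named here. A library at 0 is not drawn. The ko CL points of Gpnmb, Atp6v0d2, Trem2 and Mitf lie above every other library, those of Lyve1, Retnla, Adrb3 and Adipoq below every other library, and Ucp1 and Acly are lowest in ko CL 1 among the ko CL points.

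All 24 general macrophage markers rose (median 2.69). Their summed level was 1933, 1957 and 2012 CPM in the ko saline libraries and 18200, 12775 and 14053 in ko CL, where library 1 was the highest, and 19 of the 24 fell in wt. Mpeg1, encoding perforin-2, had the smallest p of the list, with 95.6, 85.3 and 85.4 against 1914, 1323 and 1578 CPM (4.18 ± 0.13, adjusted p = 1.79e-09). Adgre1, the F4/80 antigen, went from 73.2, 68.3 and 72.8 to 1007, 620.4 and 674 CPM, and Lyz2, lysozyme of myeloid cells, from 660, 661 and 683 to 5859, 4321 and 5012. In each of these 3 genes every ko CL library lay above every ko saline library. The protein of Csf1r is the receptor for the growth factor that macrophages need, and this gene rose by 2.12 ± 0.12. For Mpeg1 the response differed from that in wt by 4.32 ± 0.18 (adjusted p = 2.33e-08).

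The promoter of Ctss, from 250 bases before to 20 after its start, is given as an example of a strongly induced macrophage gene. The capitals mark GAGGAAGT, the ETS motif bound by PU.1, the factor that specifies myeloid cells, here on the opposite strand and reaching across the start.
Ctss, chr3:95526536-95526805, plus strand: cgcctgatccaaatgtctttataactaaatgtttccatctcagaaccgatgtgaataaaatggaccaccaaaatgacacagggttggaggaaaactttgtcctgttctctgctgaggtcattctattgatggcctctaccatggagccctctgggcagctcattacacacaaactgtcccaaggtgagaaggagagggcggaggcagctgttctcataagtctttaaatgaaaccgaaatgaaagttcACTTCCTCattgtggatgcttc
Across the 16 general macrophage markers with a promoter in the table, 3 held this motif in the 300-base window (18.8%), against 461 of all 12167 genes (3.79%).

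Many markers of resident macrophages fell. Of 18, 10 fell (55.6%, against 27.5% of all genes) and 5 rose (27.8%, near the 27.2% of all genes), or 9 and 3 with the cilia score as a covariate. Lyve1, the hyaluronan receptor of perivascular macrophages, was at 56.6, 51.5 and 46.8 CPM under saline and 12.9, 10.5 and 15.3 under CL (-2.01 ± 0.15). Timd4, which binds phosphatidylserine on dying cells, went from 10.8, 10.1 and 9.25 to 1.63, 2.04 and 2.59 (-2.28 ± 0.16), and Cd163, the haptoglobin-haemoglobin receptor, from 107, 93.8 and 106 to 59.2, 54.8 and 59.7 (-0.82 ± 0.094). The members that rose were the scavenger receptor Stab1 (1.38), the folate receptor Folr2 (1.32), the mannose receptor Mrc1 (0.96), the complement receptor Vsig4 (0.87) and the platelet factor Pf4 (0.54). Pf4 was at 0.33 without ko CL 1 and 0.39 without ko saline 1, neither called, and with the cilia score as a covariate neither Pf4 (0.38) nor Vsig4 (0.75) was called. Retnla and Mgl2, 2 genes of macrophages stimulated by interleukin 4, fell as well, but their list of alternative and classical activation genes did not. With any 1 ko library left out, 6 to 9 members of that list were higher and 2 to 4 lower. Its sum was 771, 817 and 781 CPM under saline and 880, 715 and 699 under CL. Retnla went from 327, 378 and 368 to 60.8, 52.7 and 42.0 CPM (-2.79 ± 0.15), and Mgl2 was at -2.71 ± 0.12.

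Of 20 genes of lipid-associated macrophages, 16 rose and 2 fell. Trem2, the lipid receptor that defines these cells, went from 4.68, 5.71 and 7.02 to 345, 221 and 231 CPM (5.51 ± 0.25), and Itgax, encoding CD11c, from 18.2, 19.3 and 18.99 to 507, 329 and 335 (4.37 ± 0.18). Lgals3, galectin 3, reached 1642, 1099.6 and 1353 CPM from 81.7, 83.9 and 91.0. The 2 members that fell were Acp5 and Cd36, the fatty acid translocase, which adipocytes also express (7072, 5910 and 5762 against 4682, 3776 and 4315 CPM, -0.55 ± 0.11). Lpl, likewise an adipocyte gene, was at -0.13 (adjusted p = 0.3).

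Receptors and sensors of macrophages rose widely. Of 37 phagocytic and pattern receptors 24 rose and 3 fell, or 5 without ko CL 2. Toll-like receptors had 10 of 12 members higher, among them Tlr13, a sensor of bacterial ribosomal RNA, from 7.65, 6.44 and 6.22 to 180, 118 and 133 CPM (4.41 ± 0.19). Clec7a, the beta-glucan receptor dectin-1, was at 3.79, Fcgr4, an activating receptor for IgG, at 3.68, and the phosphatidylserine receptor Cd300lb at 3.79. Inflammasome genes had 13 of 16 members higher and 0 lower, with Aim2, which senses cytosolic DNA, at 1.79 and Nlrp3 at 1.42. Of 8 NADPH oxidase subunits 6 rose and 0 fell, and Cybb, the catalytic subunit of the phagocyte enzyme, went from 59.5, 58.0 and 56.0 to 544, 357 and 391 CPM. Complement genes had 14 of 21 members higher, or 9 with the cilia score as a covariate, and 3 lower. C3ar1, the receptor for the C3a fragment, was at 3.81 ± 0.15, while Cfd, the adipocyte factor adipsin, fell from 852, 1073 and 1612 to 333, 553 and 487 CPM (-1.37 ± 0.22). The 10 MHC class II genes had 8 higher, led by their master regulator Ciita (1.96).

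Secreted signals split. Chemokines had 7 of 28 members higher and 11 lower, which is 25.0% and 39.3% against 27.2% and 27.5% of all genes, and with the cilia score as a covariate 7 were lower. Ccl9 went from 70.9, 86.3 and 70.0 to 597, 341 and 487 CPM (2.65 ± 0.19) and Ccl6, its neighbour in the same gene cluster, from 133, 159 and 126 to 655, 436 and 477 (1.91 ± 0.15), whereas Ccl2, the main attractant of monocytes, fell from 9.64, 13.1 and 7.34 to 5.27, 4.57 and 5.001 (-1.02 ± 0.23, adjusted p = 0.002). Ccl24 (-1.54) and Ccl11 (-0.56), 2 eotaxins, fell too. Ccr2, the receptor for CCL2, was at 62.9, 71.9 and 68.7 CPM under saline and 67.3, 62.1 and 65.0 under CL and was not called (-0.066 ± 0.089, adjusted p = 0.553). Among 22 cytokine ligands 10 rose and 4 fell, and among 18 receptors 14 rose and 0 fell, against 27.2% and 27.5% of all genes. Il1rn, the antagonist of interleukin 1, went from 2.07, 3.37 and 3.19 to 88.5, 52.8 and 109 CPM (4.85 ± 0.36), while Il1b was at -0.14 (adjusted p = 0.785). Tnf was low but rose (1.09, 0.769 and 1.34 against 3.85, 2.74 and 4.79 CPM, 1.82 ± 0.29), and Tgfb1 was at 1.65 ± 0.13. Il7r, encoding a chain of the interleukin 7 receptor, was among the 12 genes with the largest increases of those that reached 100 CPM (3.92, 3.92 and 4.44 against 187, 108 and 137 CPM, 5.13 ± 0.20). It is one of 26 tested T and NK cell markers, of which 5 rose and 2 fell (19.2% and 7.69%, both under the shares of all genes). Of these, 2 rose without ko CL 2 or without ko saline 3, 1 fell without ko CL 1, ko CL 3 or ko saline 2, and with the cilia score as a covariate 2 rose and 0 fell. Cd3e, of the T cell receptor complex, was at 1.78, 1.03 and 0.862 CPM under saline and 0.347, 1.40 and 0.776 under CL and was not called. Interferon-stimulated genes had 9 of 34 higher and 7 lower, or 26.5% and 20.6%, near the shares of all genes, and 4 and 2 with that covariate.

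**Figure D3:**
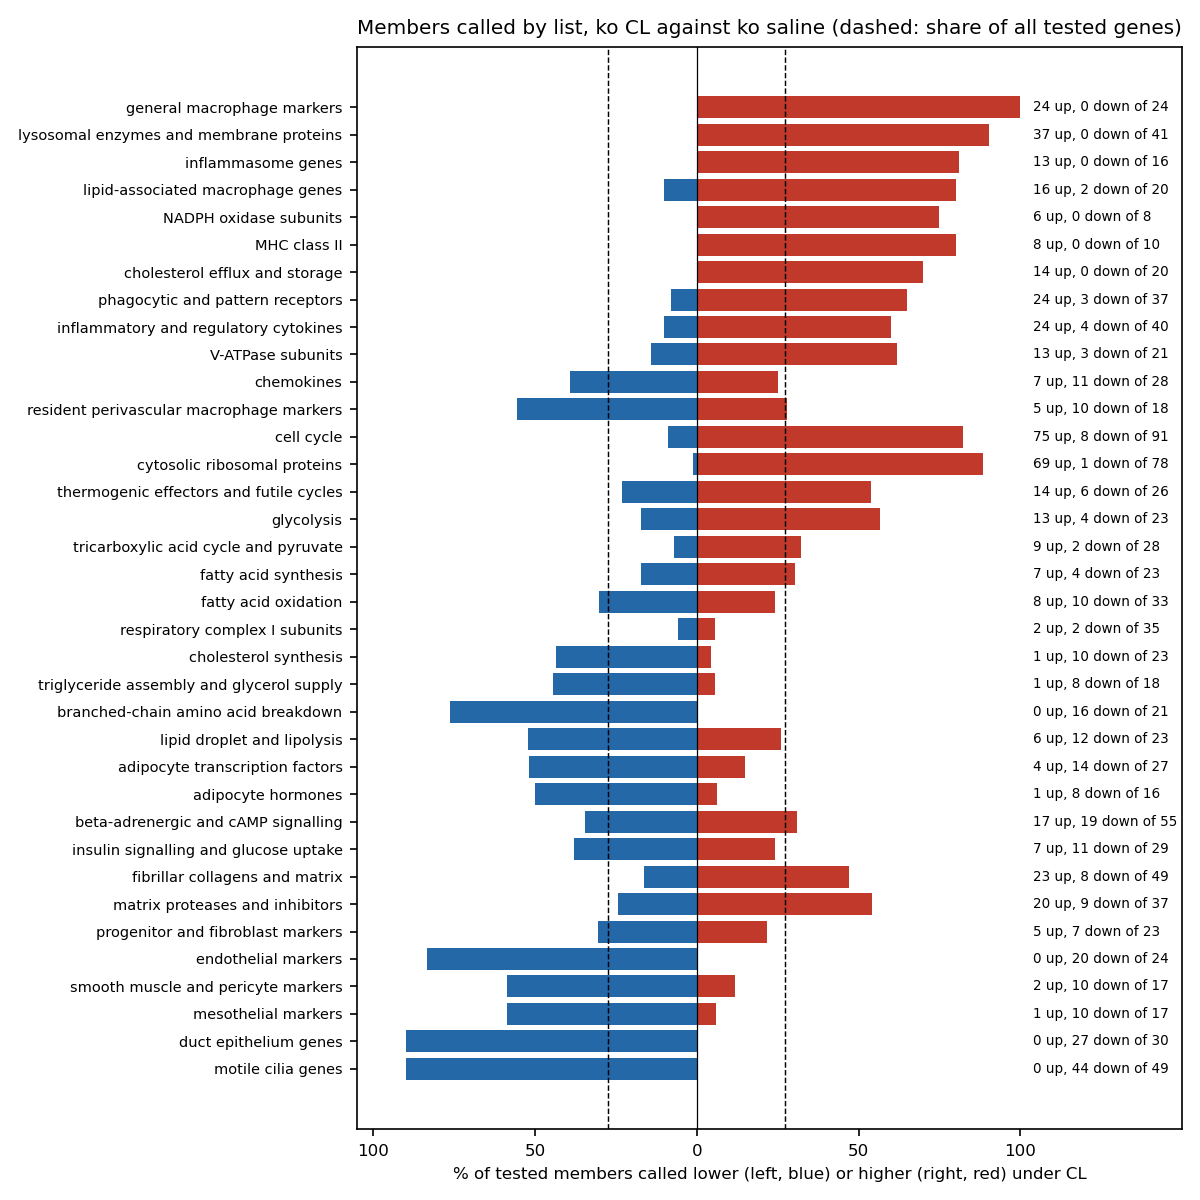
Bars give the percentage of each list's tested members called higher (right, red) or lower (left, blue) in ko CL against ko saline, with the counts at the right, and the dashed lines mark the 27.2% and 27.5% of all tested genes. The longest red bars are those of general macrophage (100%), lysosomal (90.2%), ribosomal protein (88.5%) and cell cycle genes (82.4%), and the longest blue ones those of duct epithelium (90%), motile cilia (89.8%) and endothelial genes (83.3%). Cilia and duct genes high only in ko saline could pass the filter on low counts, so their bars cannot be weighed against the dashed lines.

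Macrophages that take up lipid export cholesterol or esterify it, and genes of that handling rose while many of cholesterol synthesis fell. Of 20 efflux and storage genes 14 rose and 0 fell (median 0.76). Abcg1, a cholesterol exporter, went from 16.0, 22.4 and 18.99 to 242, 190 and 200.5 CPM (3.46 ± 0.14), Soat1, which esterifies cholesterol, from 16.5, 17.8 and 18.95 to 238, 157 and 174 (3.42 ± 0.16), and Nceh1, which hydrolyses the esters, from 11.9, 12.8 and 12.4 to 235, 135 and 149.7 (3.81 ± 0.19). Both directions of the ester cycle were thus higher. The exporter Abca1 rose by 1.43 ± 0.0999. Of 23 cholesterol synthesis genes 1 rose and 10 fell, against 19 and 1 in wt, and 19 of the 23 responded more negatively in ko than in wt (23.6% of all genes did, and 21.8% responded more positively). The number that fell was 5 without ko CL 1 and 6 without ko saline 3, and 5 with the cilia score as a covariate.

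Genes of the cell cycle rose in both genotypes. Of 91 tested members 75 rose and 8 fell, and 56 were higher with the cilia score as a covariate. All 34 mitosis genes rose, with a median of 1.87 in ko and 1.79 in wt, where 33 were called higher. Cdk1, the mitotic kinase that CDK7 activates, went from 3.52, 3.33 and 5.90 to 22.5, 18.4 and 18.9 CPM (2.22 ± 0.21), and its difference from the wt response was -0.074 ± 0.30 (adjusted p = 0.861). Top2a, the topoisomerase that untangles chromosomes, went from 13.2, 11.6 and 16.6 to 65.6, 51.6 and 49.0 CPM (1.998 ± 0.16), and Ccnb2, encoding cyclin B2, from 2.72, 2.31 and 3.41 to 10.7, 9.62 and 10.04 (1.84 ± 0.16). In all 3 the ko CL libraries lay above every ko saline library. Of the 34 mitosis genes, 5 responded more positively in ko and 0 more negatively, both under the shares of all genes (21.8% and 23.6%). Among the 5 was Cenpa, the centromeric histone, at 2.06 in ko and 0.89 in wt.

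The promoters of these 3 mitosis genes are shown since they rose together. The capitals mark the cell cycle homology region TTTGAA and the CCAAT box, on either strand, the elements through which mitotic genes are repressed and activated.
Cdk1, chr10:69352893-69353162, minus strand: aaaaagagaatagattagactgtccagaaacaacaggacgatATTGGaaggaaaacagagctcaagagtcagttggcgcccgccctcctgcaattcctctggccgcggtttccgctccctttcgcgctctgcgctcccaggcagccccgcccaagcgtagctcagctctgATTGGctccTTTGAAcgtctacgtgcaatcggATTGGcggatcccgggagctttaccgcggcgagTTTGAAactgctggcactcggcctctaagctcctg
Top2a, chr11:99024170-99024439, minus strand: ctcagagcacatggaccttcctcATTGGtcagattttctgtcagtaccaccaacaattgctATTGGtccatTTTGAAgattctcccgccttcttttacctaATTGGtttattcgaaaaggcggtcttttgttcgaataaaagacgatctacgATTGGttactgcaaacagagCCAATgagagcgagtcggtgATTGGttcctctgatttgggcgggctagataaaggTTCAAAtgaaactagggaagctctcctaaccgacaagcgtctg
Ccnb2, chr9:70421535-70421804, minus strand: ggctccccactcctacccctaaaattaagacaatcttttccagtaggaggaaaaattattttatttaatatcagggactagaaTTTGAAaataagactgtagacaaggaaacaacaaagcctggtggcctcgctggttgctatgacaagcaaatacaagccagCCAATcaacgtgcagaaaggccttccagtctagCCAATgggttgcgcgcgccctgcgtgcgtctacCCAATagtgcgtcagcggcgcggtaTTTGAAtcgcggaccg
Each held 2 of the former, and Cdk1 and Ccnb2 3 CCAAT boxes and Top2a 6. In the 300-base windows, TTTGAA was in 28 of 73 cell cycle genes with a promoter (38.4%) and in 1834 of all 12167 (15.1%), and CCAAT in 48 (65.8%) and 5116 (42%).

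Replication genes rose alongside, with 13 of 15 origin genes and 17 of 19 DNA synthesis genes higher. Mcm5, of the replicative helicase, was at 1.32 ± 0.11, and Rrm2, the ribonucleotide reductase subunit of S phase, at 2.01 ± 0.15. The G1 genes were mixed. E2f1 (1.15) and Myc (1.16) rose, Ccnd2, encoding cyclin D2, fell (-0.44). Of 6 cell cycle inhibitors 1 rose and 4 fell. Cdkn1a, encoding p21, fell from 104.1, 119.9 and 122 to 83.8, 79.1 and 76.3 CPM (-0.53 ± 0.087), whereas it rose in wt, and the 2 responses differed by -1.33 ± 0.13 (adjusted p = 3.85e-06). With the cilia score as a covariate its fall in ko was not called (-0.47). Of 28 p53 target genes 13 fell (46.4%, against 27.5% of all genes) and 7 rose (25.0%, near the 27.2% of all genes), or 9 and 3 with that covariate. Cell cycle genes are expressed by any dividing cell, and which cells carried them was not measured.

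The thermogenic programme rose in part. Of 14 thermogenic genes 9 rose and 2 fell, against 11 and 0 in wt and 27.2% and 27.5% of all genes in ko. In ko 7 of the 14 responded more negatively than in wt and 1 more positively, against 23.6% and 21.8% of all genes. Together with 12 genes of futile cycles 14 of 26 rose, or 9 with the cilia score as a covariate. Ucp1 had 5, 2 and 2 counts in the ko saline libraries and 294, 1555 and 1184 in ko CL, or 10.2, 51.9 and 51.0 CPM (adjusted p = 2.54e-06). Library ko CL 1 was far below the other 2, and all 3 were above saline. The fitted change of 8.43 ± 0.82 depends on the small count added at such low levels. Elovl3, a fatty acid elongase of brown fat, was at 13.8, 20.7 and 54.6 CPM against at most 0.544 under saline, and here too ko CL 1 was the lowest. Cox7a1, a respiratory subunit of brown fat and muscle, went from 2.10, 2.27 and 2.39 to 6.69, 20.4 and 15.9 CPM (2.66 ± 0.32) and Cox8b from 2.43, 3.59 and 5.36 to 7.76, 28.2 and 18.6 (2.25 ± 0.43). For neither Cox7a1 nor Cox8b was the response called different from that in wt (differences of -0.88 ± 0.44 and -1.06 ± 0.58, adjusted p = 0.125 and 0.155), which does not show that they were alike. Ppargc1a, the coactivator of mitochondrial genes, fell (-0.56 ± 0.18, adjusted p = 0.0172), at 11.2, 9.81 and 11.6 CPM under saline and 4.92, 7.58 and 9.83 under CL, so that the groups overlapped. It was at 0.71 in wt, and in ko it was not called in a fit of the ko libraries alone (adjusted p = 0.0676) or with the cilia score as a covariate (adjusted p = 0.0769). Of the creatine cycle, Gatm, which makes its precursor, went from 11.9, 10.9 and 13.4 to 82.3, 55.6 and 59.4 CPM (2.44 ± 0.15), the creatine transporter Slc6a8 was at 1.76 and creatine kinase B, Ckb, at 1.66. In wt Gatm and Ckb fell (-0.66 and -1.13), and Gamt, which completes creatine, fell in ko (-0.56). In these creatine genes ko CL 1 was the highest ko CL library, as for the macrophage markers.

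Genes of oxidative metabolism rose widely in wt fat and responded more negatively in ko. Of 28 genes of the tricarboxylic acid cycle 9 rose and 2 fell in ko (32.1% and 7.14%, against 27.2% and 27.5% of all genes), at a median of 0.15. In wt 27 rose, and 27 of the 28 responded more negatively in ko, against 23.6% of all genes. The number that rose depended on single libraries, at 16 without ko CL 1, 2 without ko CL 2 or ko CL 3, 3 without ko saline 2 and 4 without ko saline 3, and it was 0 with the cilia score as a covariate. Subunits of complex I had 2 of 35 higher and 2 lower, against 33 higher in wt, and mitochondrial ribosomal proteins 5 and 8 of 75, against 61 higher in wt. Of 40 subunits of complexes III to V 12 rose (30%, near the share of all genes) and 3 fell, against 34 and 0 in wt, and 28 responded more negatively in ko. The number that rose was 20 without ko CL 1, 6 without any 1 of ko CL 2, ko CL 3, ko saline 1 and ko saline 2, and 3 with the cilia score as a covariate. Leaving out ko CL 1 gave 5 higher and 1 lower complex I subunits, and leaving out ko CL 2 gave 1 and 6. Of the mitochondrial ribosomal proteins 9 were higher without ko CL 1 and 13 lower without ko CL 2. Of the 7 tested mitochondrially encoded messenger RNAs 4 fell and none rose, while all 7 rose in wt. Others had too few counts to be tested, among them mt-Co2 and mt-Co3 with 1 count each over all libraries. All mitochondrial genes together took 4.84% to 5.93% of the gene counts of ko saline and 3.52% to 4.37% of ko CL, against 4.42% to 4.98% and 9.50% to 10.4% in the wt groups. mt-Nd4 went from 3828, 2775 and 3379 to 2036, 2268 and 2496 CPM (-0.55 ± 0.13), a response -1.72 apart from wt (adjusted p = 8.42e-06). Pdk4, which turns the cell from glucose to fat oxidation, fell by 0.36 (SE 0.11) where it had risen by 2.29 in wt. Mitochondrial fatty acid oxidation had 6 of 20 genes higher and 3 lower, and with the peroxisomal genes 8 of 33 were higher and 10 lower (24.2% and 30.3%, near the shares of all genes). The higher were 15 without ko CL 1, and with the cilia score as a covariate 4 were higher and 5 lower. Of the 33, 26 responded more negatively in ko. Acadvl, the first enzyme of long chain oxidation, was at 225, 215 and 229 CPM under saline and 268, 482 and 414 under CL (0.80 ± 0.16). Among 21 genes of branched-chain amino acid breakdown 16 fell and 0 rose, or 6 with the cilia score as a covariate, and Bckdhb, of the committed step, was at -0.75 ± 0.093.

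Lipid synthesis genes were uneven among the ko CL libraries. Acly, which makes cytosolic acetyl-CoA, was at 1467, 911 and 1295 CPM under saline and 1448, 2521 and 3056 under CL (0.94 ± 0.24, adjusted p = 0.00533), and ko CL 1 lay within the saline range. Fasn, fatty acid synthase, was at 4641, 3335 and 5224 CPM under saline and 3313, 6619 and 6329 under CL and was not called (0.30 ± 0.23, adjusted p = 0.281), but without ko CL 1 it was called at 0.53. Of 23 fatty acid synthesis genes 7 rose (30.4%, near the 27.2% of all genes) and 4 fell, and without ko CL 1 12 rose. With the cilia score as a covariate 3 rose and 2 fell, and the median went from 0.28 to -0.0053. Srebf1, the lipogenic transcription factor, was at 149.5, 175 and 187 CPM under saline and 208, 446 and 419 under CL (1.07 ± 0.21). In triglyceride assembly only Gpd1, which makes glycerol phosphate from glucose, rose (1141, 873 and 964 against 1234, 2471 and 2407 CPM), while 8 of 18 genes fell, or 5 with that covariate. Pck1, which makes it from pyruvate, went from 1213, 1374 and 1169.9 to 391, 381 and 306 CPM (-1.80 ± 0.16), and the 2 final acyltransferases Dgat1 (-0.82) and Dgat2 (-0.74) fell. Without ko CL 1, 4 genes of that list rose. With the cilia score as a covariate Acly (0.61), Gpd1 (0.87) and Srebf1 (1.04) were not called.

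Lipolysis genes fell. Of 11 lipases and their regulators 8 fell and 0 rose, against 6 higher in wt. Mgll, the monoglyceride lipase, went from 1858, 1750.4 and 1786 to 914, 1049 and 1031 CPM (-0.85 ± 0.084), Lipe, hormone-sensitive lipase, from 909, 1028 and 1032 to 464, 789 and 667 (-0.63 ± 0.16), and Pnpla2, the first lipase of the cascade, was at -0.42 ± 0.13. Aqp7, the glycerol channel, was at -1.01 ± 0.088. With the cilia score as a covariate Lipe (-0.61) and Pnpla2 (-0.60) were not called. Of 12 droplet proteins 6 rose and 4 fell. Plin4, of white adipocytes, fell from 1842, 2003 and 1928 to 689, 872 and 797 CPM (-1.29 ± 0.13), while Plin2, which coats droplets in many cells including foam cells, rose from 537, 486 and 448 to 1507, 968 and 1439 (1.41 ± 0.18). Plin5 (0.70) and Cidea (1.61), droplet proteins of oxidative adipocytes, rose too, but neither was called with the cilia score as a covariate (0.60 and 1.26), Cidea was not called without ko CL 2 (0.99), and Plin5 was not called without ko CL 3 (0.497) or ko saline 1 (0.48). Over the droplet proteins, lipases and regulators together, 6 of 23 rose, near the 27.2% of all genes, and 12 fell, against 27.5% of all genes. With that covariate 2 rose and 6 fell.

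**Figure D4:**
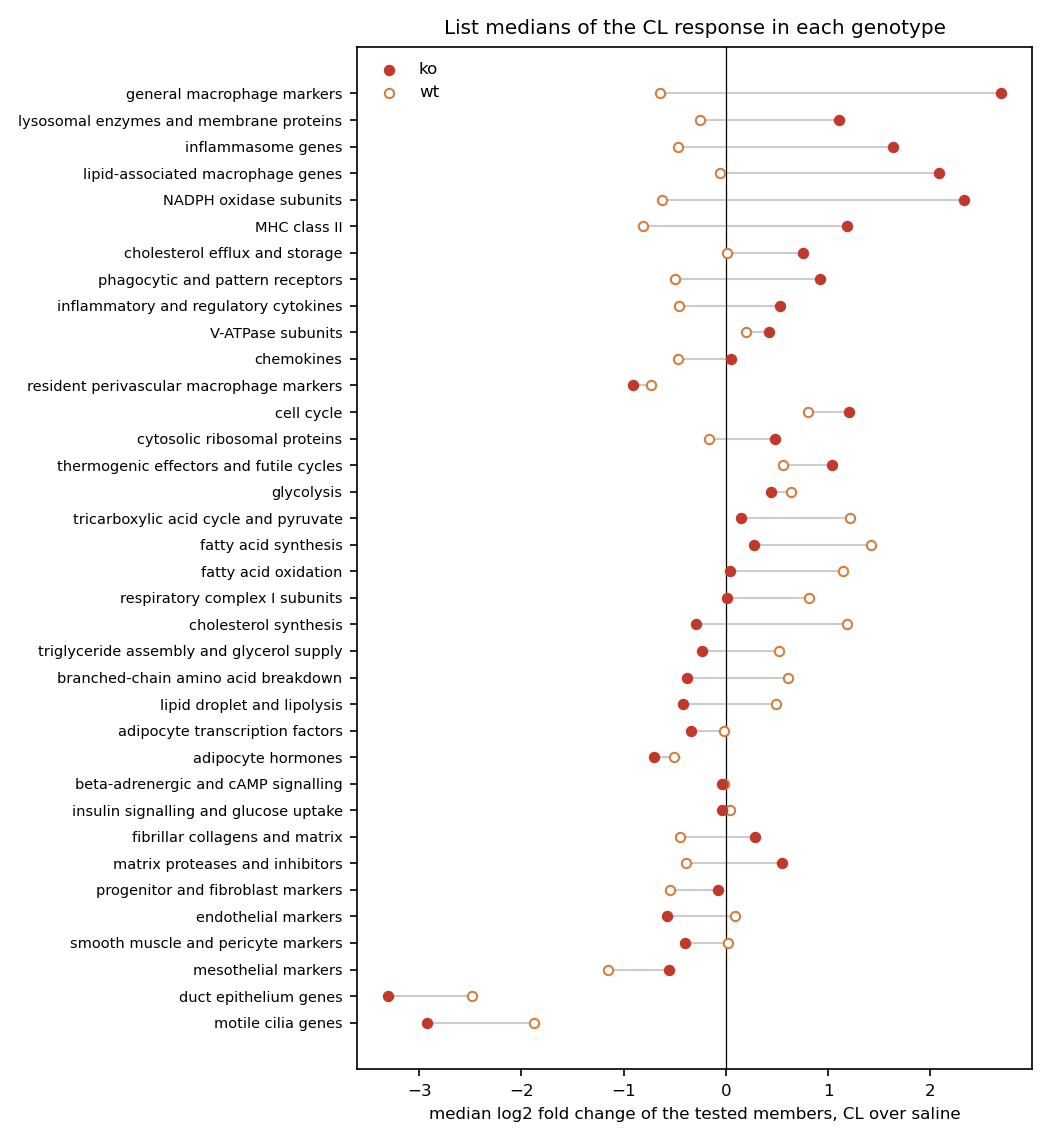
Points give the median log2 fold change of CL over saline over each list's tested members, filled for ko and open for wt, joined by a line. The general macrophage markers and the lysosomal enzymes and membrane proteins lie to the right in ko (2.69 and 1.11) and below 0 in wt (-0.64 and -0.26), the resident macrophage markers lie below 0 in both, and the tricarboxylic acid cycle, complex I and cholesterol synthesis lists lie near or below 0 in ko and to the right in wt.

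The beta-3 receptor itself fell. Adrb3 was at 372, 419 and 435 CPM under saline and 62.7, 82.6 and 73.8 under CL (-2.48 ± 0.10, adjusted p = 3.25e-09), against -0.51 in wt, a difference of -1.98 ± 0.14 (adjusted p = 3.14e-07). Of 15 receptors and G proteins 8 fell and 2 rose, against 27.5% and 27.2% of all genes. Adora1, the adenosine receptor that restrains lipolysis, was at -1.36 ± 0.12, and Pde3b, the phosphodiesterase through which insulin does so, went from 341, 297 and 305 to 128, 158 and 135 CPM (-1.16 ± 0.085). Among the cyclases, Adcy3 rose from 19.7, 20.9 and 20.8 to 113, 77.8 and 95.9 CPM (2.22 ± 0.11) and Adcy7, of immune cells, from 45.3, 46.7 and 50.8 to 306, 178 and 219 (2.30 ± 0.15). Rgs2, a brake on G protein signalling, rose by 2.47 ± 0.17 in ko and 2.03 in wt. In insulin signalling 7 of 29 genes rose, near the 27.2% of all genes, and 11 fell, against 27.5% of all genes. The receptor Insr was among those that fell (-0.47).

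Adipocyte hormones fell. Of 16 tested 8 fell and 1 rose, or 3 rose without ko CL 1, and the summed level was 8412, 8947 and 9806 CPM under saline and 3723, 4685 and 4580.3 under CL. Adipoq, adiponectin, went from 3421, 3239 and 3454 to 1073, 1465 and 1299.7 CPM (-1.40 ± 0.11), Lep, leptin, from 1167, 1231 and 1067 to 388, 316 and 381 (-1.67 ± 0.11), and Rbp4, the retinol carrier, from 487, 511 and 514 to 156, 161 and 176 (-1.62 ± 0.079). In wt Rbp4 rose, and the responses differed by -1.96 ± 0.11 (adjusted p = 6.87e-08). Metrnl, a secreted factor of adipocytes and macrophages, was the one that rose (16.2, 18.9 and 18.4 against 96.9, 62.0 and 71.8 CPM, 2.11 ± 0.15). Among 27 adipocyte transcription factors 14 fell and 4 rose. Pparg (-0.41 ± 0.11) and Cebpa (-0.50 ± 0.097), the factors that make a cell an adipocyte, fell, and Esrra, a regulator of mitochondrial genes, rose (0.62 ± 0.090). With the cilia score as a covariate 5 of the 27 fell, and Pparg was not called (-0.47). Sfrp5, whose protein binds Wnt ligands outside the cell, fell from 23.5, 41.6 and 20.3 to 1.18, 0.501 and 0.560 CPM (-5.23 ± 0.38), and it was at -5.92 in wt. The imprinted gene Mest, a marker of expanding fat, fell from 252, 291 and 214 to 34.4, 42.5 and 38.5 CPM (-2.71 ± 0.16). Of 18 imprinted genes 7 rose and 8 fell (27.2% and 27.5% of all genes did), or 4 and 5 with that covariate. H19, a noncoding RNA of the imprinted Igf2 locus, was low and rose (0.761, 0.952 and 0.479 against 14.7, 11.2 and 8.15 CPM, 3.96 ± 0.32).

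Many matrix genes and enzymes that cut matrix rose. Of 49 structural genes 23 rose and 8 fell, or 15 and 2 with the cilia score as a covariate, while in wt 2 rose and 31 fell. Col1a1 went from 112, 154 and 199 to 507, 428 and 510.3 CPM (1.64 ± 0.21) and Col3a1 from 1126, 1424 and 1753 to 3564, 2788 and 3204 (1.15 ± 0.16). Postn, periostin, was at 1.55 and the keratan sulphate proteoglycan Lum at 1.41. Of 28 matrix proteases 17 rose and 5 fell. Mmp12, the macrophage elastase, went from 10.7, 18.6 and 13.1 to 701, 358 and 576 CPM (5.27 ± 0.45), Adam8 from 11.5, 19.5 and 17.0 to 483, 308 and 376 (4.6005 ± 0.23), and Mmp2, gelatinase of stromal cells, from 73.8, 80.3 and 94.6 to 268, 264 and 263 (1.68 ± 0.11). Of 9 protease inhibitors 3 rose and 4 fell. Timp4, a tissue inhibitor of adipocytes, fell from 289.9, 237 and 186 to 14.7, 24.1 and 23.9 CPM (-3.51 ± 0.21) and Timp3 fell too (-1.12), while Timp1 (1.32, not called with the cilia score as a covariate) and Timp2 (0.73) rose. Pdgfra, which marks adipose progenitors, rose by 0.83 ± 0.083, and Dpp4, of the more upstream progenitors, fell (-0.58 ± 0.11). Of 23 progenitor and fibroblast markers 5 rose and 7 fell, or 21.7% and 30.4%, near the shares of all genes, and 3 each way with the cilia score as a covariate.

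Vascular markers fell. Of 24 endothelial markers 20 fell and 0 rose, or 8 fell with the cilia score as a covariate, at a median of -0.57, and their sum went from 2056, 2248 and 2054 to 1264, 1496 and 1496 CPM, with ko CL 1 the lowest. Gpihbp1, which holds lipoprotein lipase on capillaries, went from 116, 113 and 119 to 48.8, 63.9 and 60.1 CPM (-1.01 ± 0.091), and Flt1, a VEGF receptor, from 119.6, 127 and 112 to 59.1, 68.1 and 78.2 (-0.80 ± 0.090). In wt 7 rose and 4 fell. Of 17 smooth muscle and pericyte markers 10 fell and 2 rose, or 4 fell with that covariate, among them Rgs5, of pericytes (-1.02 ± 0.17). Of 17 mesothelial markers 10 fell and 1 rose, but Krt8 and Krt18 in that list are also genes of duct epithelium, whose sum fell as given above. Msln, mesothelin, went from 42.4, 43.3 and 67.0 to 32.2, 24.3 and 27.5 CPM (-0.86 ± 0.17).

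Ribosomal protein genes rose by a small amount and stress genes moved both ways. Of 78 cytosolic ribosomal proteins 69 rose and 1 fell, or 24 rose with the cilia score as a covariate, at a median of 0.48, while 2 rose and 13 fell in wt. Rpl3 went from 362, 387 and 373 to 579.6, 548 and 535 CPM (0.57 ± 0.067). The integrated stress response had 10 of 25 genes higher, against 27.2% of all genes, and 7 lower, near the 27.5% of all genes. Atf3, a stress-induced factor, went from 9.25, 8.13 and 9.83 to 282, 153 and 178 CPM (4.49 ± 0.22), but Phgdh, which opens serine synthesis and is a target of the same pathway, fell from 281, 311 and 297 to 71.8, 82.8 and 66.9 (-2.004 ± 0.10). Of the genes around oxidative stress, the haem oxygenase gene Hmox1 was at 1.66 ± 0.12 and the ferritin light chain Ftl1 reached 2345, 1997 and 2016 CPM from 703, 772 and 783, whereas the glutathione transferase Gstm1 fell (-1.501 ± 0.092). NRF2 targets as a list had 5 of 16 higher and 9 lower, and with 11 iron genes 11 were higher and 11 lower, or 5 and 7 with that covariate. Glycolysis genes had 13 of 23 higher and 4 lower, or 6 and 1 with that covariate. Hk3, the hexokinase of myeloid cells, was at 3.50 ± 0.17, and Pfkfb3, which makes the activator of phosphofructokinase, went from 964, 941 and 843 to 336, 416 and 366 CPM (-1.30 ± 0.12). Of 24 immediate early genes 11 rose and 1 fell (27.2% and 27.5% of all genes did), or 5 and 0 with that covariate. Fos was at 2.01 ± 0.33 and Egr1 was not called (-0.19, adjusted p = 0.632). Nr1d1, of the circadian clock, fell by 1.22 (SE 0.19), in a list of 18 clock genes with 6 lower, against 27.5% of all genes.

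Many of the largest decreases were in genes of ciliated and duct epithelium rather than of fat. Mmp7, a protease of glandular epithelium, was at 31.3, 40.5 and 29.1 CPM under saline and 1.28, 2.81 and 0 under CL (-4.55 ± 1.14, adjusted p = 0.00584), and DESeq2 did not call it (adjusted p = 0.0843). Prom2, an epithelial membrane protein, went from 3.77, 7.10 and 5.81 to 0.104, 0.534 and 0.0431 CPM, and Sall1, a factor of the developing kidney and genital tract, from 5.48, 6.30 and 4.98 to 0.208, 0.501 and 0.0431. Foxj1, the master regulator of motile cilia, was at 5.62, 9.81 and 8.58 CPM under saline and 0.173, 0.968 and 0 under CL. In each the 3 ko CL libraries lay below all ko saline libraries. Of 49 motile cilia genes 44 fell and 0 rose, and of 30 duct epithelium genes 27 fell and 0 rose. With the motile cilia score, which is made of the former list, as a covariate, 1 and 4 fell. Genes high only in ko saline could pass the filter on low counts, so these counts cannot be weighed against the 27.5% of all genes. Epididymis and testis genes could not be described as a list, since 1 of 16 passed the filter on low counts. With that covariate Mmp7 (1.28), Foxj1 (0.78), Prom2 (-0.97) and Sall1 (-0.54) were not called. Among the wt libraries the same lists were highest in wt saline 1, where they summed to 203 and 178 CPM, while wt saline 2 was at 91.3 and 90.98 and wt saline 3 lower.

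**Figure D5:**
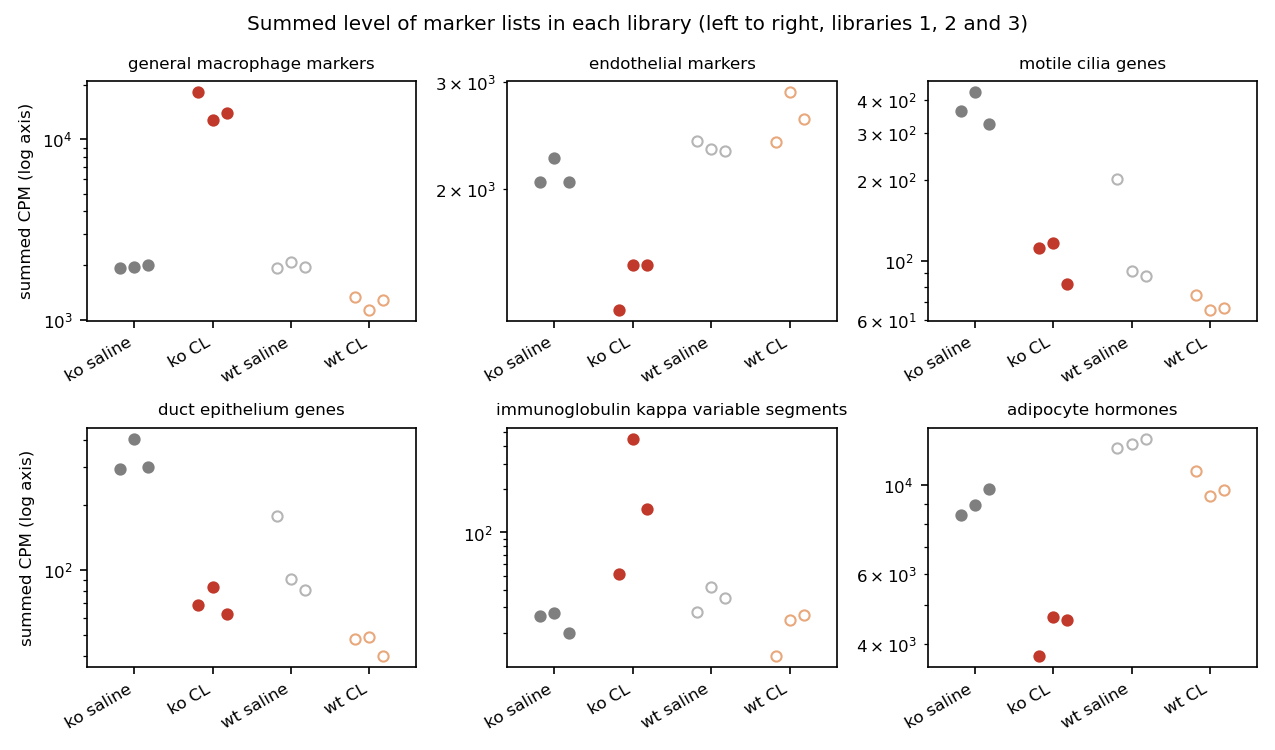
Each panel gives the summed CPM of a marker list in every library on a log axis, as points in the order 1 to 3 within a group, filled for ko and open for wt. The 3 ko saline libraries are highest for motile cilia (325 to 425 CPM) and duct epithelium, ko CL 2 is highest for immunoglobulin kappa segments, and ko CL 1 is highest for macrophage markers and lowest for endothelial markers and adipocyte hormones of all 12 libraries.

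Immunoglobulin genes were highest in 1 library, ko CL 2, and many variable segments rose without it too. Of 47 tested heavy chain variable segments 35 rose, and of 46 kappa segments 38, with 0 lower in either list. Segments high only in ko CL could pass the filter on low counts, so these counts cannot be weighed against the 27.2% of all genes. Without ko CL 2 the numbers that rose were 20 and 25, and with the cilia score as a covariate 16 and 16. The kappa segments summed to 26.1, 27.3 and 19.9 CPM under saline and 51.7, 449.5 and 146 under CL. Jchain, which joins secreted antibodies, was at 16.1, 14.2 and 13.4 CPM under saline and 29.97, 314 and 85.9 under CL (3.30 ± 0.64), and Ighm, the IgM heavy chain, at 691, 893 and 734 and at 407, 2575 and 459.9. Ighm was not called with all libraries (0.57 ± 0.52, adjusted p = 0.377) and fell by 0.86 without ko CL 2. Mzb1, a plasma cell gene, was at 0.520, 26.4 and 1.60 CPM in ko CL and was called at 3.21, but was at -0.01 without ko CL 2 and not called without ko saline 1 (adjusted p = 0.059). Variable segments resemble one another closely, so the counts of single segments are uncertain. Of 15 B cell markers 6 rose, 2 fell and 7 were not called, and of 17 plasma cell markers 12 rose and 1 fell. Over both, 18 rose and 3 fell (27.2% and 27.5% of all genes did), or 11 and 5 without ko CL 2. Cd22, an inhibitory lectin, went from 1.41, 1.61 and 1.85 to 45.8, 37.1 and 34.3 CPM (4.58 ± 0.19) and Blnk, a signalling adaptor, from 10.99, 14.5 and 14.3 to 197, 127 and 142 (3.55 ± 0.16), both without overlap and with ko CL 1 the highest library.

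A few large changes fell in none of the lists. Vsig8, an immunoglobulin-family membrane protein, went from 0.508, 0.732 and 0.511 to 66.2, 26.8 and 66.0 CPM (6.499 ± 0.46), and Myh15, a myosin heavy chain, from 0.0725, 0.293 and 0.223 to 36.6, 15.2 and 11.5 (6.71 ± 0.63). St18, a zinc finger factor (5.58 ± 0.36), and Npas4, an activity-dependent factor known from neurons (5.49 ± 0.51), were near 0 under saline. Among the abundant genes that fell were Ntrk2, the receptor for BDNF (214, 238 and 242 against 57.5, 42.7 and 42.7 CPM, -2.28 ± 0.13), Adgrg2, an adhesion receptor that is also abundant in the male duct (134, 171 and 138 against 24.4, 31.9 and 16.2, -2.60 ± 0.24), and the amylase gene Amy1 (-1.91 ± 0.10). Amy1 was at 0.030 in wt, and the responses differed by -1.94 ± 0.14 (adjusted p = 5.04e-07). Whether reads of related amylase genes affected the Amy1 counts was not tested.

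Granulocyte and mast cell genes were low and rose. Of 7 tested neutrophil markers 6 rose and 0 fell, with Csf3r, the receptor for G-CSF, from 7.00, 6.41 and 6.32 to 48.1, 42.6 and 42.3 CPM (2.75 ± 0.084), while S100a8, an abundant neutrophil transcript, was at 2.65, 4.10 and 2.62 CPM under saline and 4.02, 3.24 and 4.18 under CL and not called. Of 11 mast cell and eosinophil markers 7 rose and 2 fell, and the mast cell protease Cpa3 went from 9.61, 9.96 and 11.5 to 29.7, 26.1 and 26.8 CPM (1.41 ± 0.12).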

How the data were processed

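The authors deposited raw read counts per Ensembl gene for 12 libraries, made by alignment with STAR to GRCm38 and counting with HTSeq, per the submitters' processing notes, with versions not given in the sources used here. Each library pooled RNA of 2 mice, per the labels' protocols. The 5 summary lines of each deposited count file, 12.5% to 17.2% of its total, were dropped. Of 53379 identifiers 53274 had a symbol in the reference table used here. Gene counts per library ran from 21892817 to 27985019, and their number and the 3 libraries per group limit precision.

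Genes were kept by edgeR's filter on low counts (minimum count 10, 16554 genes), scaled with TMM factors and fitted over all 12 libraries with 1 mean per group, using edgeR 4.0.16 in R 4.3.3. The quasi-likelihood test was adjusted over all tested genes after Benjamini-Hochberg, and genes were called at 0.05. SE is the log2 fold change divided by the root of the F statistic. The difference of the ko and wt responses was a contrast of the same fit. On simulated counts with 100 genes changed at each size, 68% of 1.5-fold and 84% of 2-fold changes were recovered, and 7.32% of the calls were false. Far fewer genes changed there than were called in the data, so these rates need not hold here.

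Named genes included the 12 largest changes each way with a mean of 5 CPM, and the same with 100 CPM. These were called, protein-coding and without overlap of the 3 against 3 libraries. Up to 4 called members of each list by adjusted p, of any gene type and with or without overlap, were added, beside genes fixed by name. Some other genes, among them Gla, Psap and Ccnb2, were named outside these rules. The genes, lists and comparison were chosen with earlier results of these data known. Alternatives were DESeq2 1.42.0, other scalings and filters, the ko libraries alone, a replicate block, a covariate for motile cilia genes, and leaving out libraries. A few genes are not reported here. Replicate pairs differed by more than sampling noise, so each library counted as 1 replicate. Promoter sequences came from RefSeq (GRCm38.p6), where 12167 tested genes had one.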

Additional observations from a re-analysis of the deposited data

Results flagged for a closer look

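The response to CL was compared between the genotypes by edgeR's test of the difference itself (ko response minus wt response, log2, adjusted over all 16554 genes). It was called in the positive direction in 92 of the 175 genes named above and in the negative one in 45. Over all genes the shares were 21.8% and 23.6%. Many of the 175 were named for their change in ko, so their counts cannot be weighed against those shares. The difference is printed above for 10 of the 175, and in 7 of these 10 it was called. Mpeg1, the macrophage perforin, was at 4.18 in ko and -0.15 in wt, a difference of 4.32 ± 0.18 (adjusted p = 2.33e-08). Mitf, the MiT factor, was at 2.16 and -0.37, a difference of 2.53 ± 0.22 (adjusted p = 1.83e-06). In both genes all 3 ko CL libraries lay above the 9 other libraries.

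In the other 5 genes the response was more negative in ko. Adrb3, the beta-3 receptor, fell in both genotypes, at -2.48 in ko and -0.51 in wt (-1.98 ± 0.14, adjusted p = 3.14e-07). Rbp4, the retinol carrier, was at -1.62 and 0.35 (-1.96 ± 0.11, adjusted p = 6.87e-08), and Amy1, the amylase gene, at -1.91 and 0.030 (-1.94 ± 0.14, adjusted p = 5.04e-07). mt-Nd4, of complex I and encoded in the mitochondrion, was at -0.55 and 1.16 (-1.72 ± 0.18, adjusted p = 8.42e-06). Cdkn1a, encoding p21, was at -0.53 and 0.80 (-1.33 ± 0.13, adjusted p = 3.85e-06), and its fall in ko was not called with the motile cilia score as covariate. Groups of 3 were not searched for single outlying libraries.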

How the results depend on the processing

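The 4497 higher and 4546 lower genes were 4322 and 4469 with DESeq2, 4393 and 4634 with RLE factors, 3701 and 5475 with library size alone, 4227 and 4758 without a filter on low counts, 3913 and 4042 with a minimum count of 50, and 4043 and 4289 in the ko libraries alone. Library size alone moved the median of all genes to -0.0956. Removing the immunoglobulin, cilia and duct genes gave 4433 and 4490, and leaving out ko CL 2 and wt saline 1 together 4043 and 4638. Leaving out 1 library at a time gave 3836 to 4577 higher and 4275 to 4899 lower genes. The motile cilia score as a covariate gave 2480 and 1856. The score differs between ko saline and ko CL without overlap, so that score and treatment cannot be told apart. Under it, reversed values were 1.28 for Mmp7, 0.78 for Foxj1, and medians of 0.022 for motile cilia genes, 0.066 for female duct genes, 6.05 for the 1 epididymis and testis gene tested, -0.0053 for fatty acid synthesis, 0.0027 for skeletal muscle genes and -0.0097 for proteasome subunits. The proteasome median was -0.035 with library size alone. Mzb1 ranged from -0.010 to 3.73 when single libraries were left out, the lowest without ko CL 2, and was at -0.021 without ko CL 2 and wt saline 1. The cause was not tested. Of 175 genes named in the text, 157 kept their direction and side of the threshold under the covariate and 174 with DESeq2.

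The replicate numbers are not stated to pair the samples and were not used as pairs. Deviations of ko saline and ko CL libraries of one number from their group means correlated at -0.12, 0.027 and 0.022. With 3 libraries per group these correlations cannot settle whether pools were paired. With a replicate block 4306 genes were higher and 4391 lower. Of the genes named in the text, Mzb1 lost its call under the block (2.15, adjusted p = 0.0646), and no other call changed.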
